A study of Mus musculus with 6 samples.

Results

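The genes described here make, break down, bind or sense retinoic acid: the dehydrogenases Rdh10, Aldh1a2 and Aldh1a3, the degrading enzyme Cyp26b1, the binding proteins Crabp1 and Crabp2, and the receptors Rara, Rarb and Rarg. They are 9 of the 25239 gene symbols in the table, found by symbol, and all 9 have a fold change, as do 18446 genes in all. The set was chosen by role with the fold changes and p-values of this comparison known, so those values describe the genes and test nothing about them. Both groups are E15.5 embryonic cortex of C57BL/6J mice, all labelled Wildtype by genotype. In one group (3 libraries, labelled MPPH) the Thr280Ala variant of the cyclin D2 gene Ccnd2 was inserted by Breasi-CRISPR through in utero electroporation at E13.5, and RNA came from the transfected area. The other group is labelled GFP only (3 libraries). The labels show no control edit lacking the variant, do not say whether a library is 1 embryo or a pool, and give no share of edited cells. The p-values therefore measure the spread between these libraries, which may be technical, and the variant cannot be told apart from the editing.

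The data are the authors' single comparison of the groups, whose numerator is not stated. A gene with a fold change above 0 is described as higher on the positive side, without saying which label that side carries. The base means of the table, which average counts divided by size factors over the libraries, could be resolved into the whole reads of each library for all 9 genes. For Rdh10, Rara, Rarb, Rarg and Cyp26b1 the deposited fold change and standard error were used to pick the reads, and for the other 4 the mean alone gave 1 solution. The libraries are numbered 1 to 3 on either side in falling order of size factor, and none is matched to a label. Size factors of the positive libraries were 1.11, 1.02 and 0.904, against 1.11, 1.04 and 0.850 for the negative ones. Total reads are unknown. Cortical markers were abundant, with a base mean of 20121 for Neurod6, an example picked after its value was seen. Of the 12 on the list, 0 were called, against 0.136% of all genes tested, so that count does not show an unchanged cortex. Their fold changes were positive for 9 and negative for 3. By the authors' DESeq2 comparison 4 had an unadjusted p under 0.05, all positive, where 3.96% of all genes tested pass. The smallest p was that of Lhx2, at a log2 fold change of 0.33 (standard error 0.09, DESeq2 adjusted p = 0.0552, deposited by the authors).

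Retinoic acid is made from vitamin A in a pair of oxidation steps. Rdh10 turns retinol into retinaldehyde, and the Aldh1a enzymes turn retinaldehyde into retinoic acid. Inside the cell the acid is held by the Crabp proteins, is broken down by Cyp26 enzymes, and acts through receptors of the Rar family, which bind DNA as partners of the Rxr receptors. In the embryonic mouse forebrain Aldh1a2 is known from the meninges, the fibroblast layers over the brain, while Aldh1a3 is known from the lateral ganglionic eminence and Rarb from the developing striatum.

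A promoter of Rarb is shown because Rarb is both a receptor and a classic target of retinoic acid. The RefSeq table has promoters for 6 of the 9 genes (10 windows in GRCm38.p6, each from 250 bases before a start to 50 after it), with no entry for Aldh1a3, Crabp2 or Rdh10. They were searched on both strands for direct repeats of a retinoic acid half-site, which was AGGTCA or one of the variants AGTTCA or GGGTCA or GGTTCA, in any pairing. With 5 bases between the half-sites 1 of the 10 windows matched, that of Rarb, at bases -53 to -37 from the start. The same search matched 0.0974% of all 32851 promoter windows. With spacers of 1 base (0.222% of all windows) and of 2 bases (0.268%) none of the 10 windows matched. The start of the Rarb window lies inside the annotated span of the gene, whose outer end at 16819156 has no window here and was not searched. The 250 bases before the start lie on the minus strand at chr14:16575477-16575726, and capitals mark the half-sites.
Rarb promoter: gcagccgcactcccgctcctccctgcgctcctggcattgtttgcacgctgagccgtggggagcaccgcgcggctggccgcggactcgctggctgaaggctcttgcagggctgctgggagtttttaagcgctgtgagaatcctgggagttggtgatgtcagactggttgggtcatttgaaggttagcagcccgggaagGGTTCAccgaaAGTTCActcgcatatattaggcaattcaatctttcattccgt

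Aldh1a2 was the only one of the 9 genes that the authors' DESeq2 comparison called, and it was higher on the positive side. The background was 0.136%, the share of tested genes with an adjusted p under 0.05 in the authors' deposited table (25 of 18446). The 9 genes were proposed with these results known, so nothing is read from their count. The same share was 0.0867% for calls on the positive side alone, 0.282% at a threshold of 0.10, 0.223% when the deposited p was adjusted over genes with a base mean of at least 10 and 0.133% with at least 50. A pair of library patterns ran through the set. Aldh1a2, Cyp26b1, Crabp2 and Rdh10 had their most reads in positive libraries 1 and 2, and Rarb, Aldh1a3 and Crabp1 had theirs in negative libraries 1 and 3. Once normalised, Rarg was also highest in positive libraries 1 and 2, and Rara in negative libraries 1 and 3. Their spans were smaller, with the highest library 1.32 times the lowest for Rarg and 1.56 times for Rara. For none of the 9 genes were the sides fully apart. They were for 12.5% of the 2529 genes with at least 60 recovered reads and a base mean up to 80, limits that only Aldh1a2, Crabp1 and Crabp2 of the 9 genes meet.

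**Figure D1:**
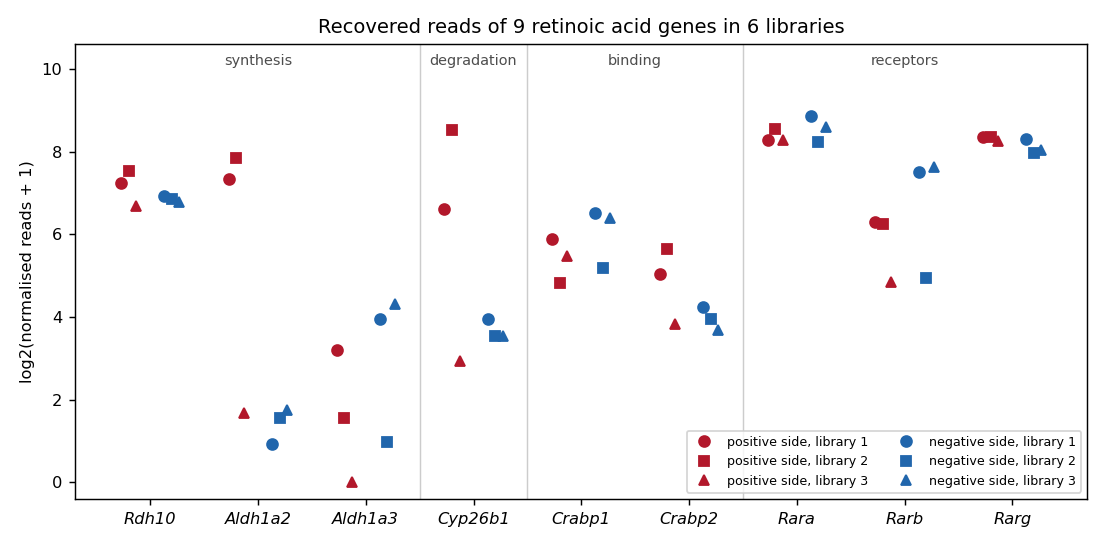
Recovered reads of the 9 genes on the log2(normalised reads + 1) scale, 1 point per library, with the positive side in red left of the negative side in blue and symbols for libraries 1 to 3. Aldh1a2 and Cyp26b1 are far higher in positive libraries 1 and 2 than in the other 4 libraries, and the sides overlap for every gene.

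Aldh1a2 lies on chromosome 9, from 71215789 to 71296243 on the plus strand in mm10 (ENSMUSG00000013584.5). It had 179, 233 and 2 reads in positive libraries 1 to 3, against 1, 2 and 2 in the negative ones. Positive libraries 1 and 2 held 98.1% of its normalised reads, and library 3 of that side was level with the negative side. The mean of normalised reads was 131 over the positive libraries, against 1.72 over the negative ones, 75.8 times as high. The authors' deposited table puts the log2 fold change of Aldh1a2 at 6.26 (standard error 1.56, 95% interval 3.20 to 9.32; DESeq2 adjusted p = 0.0465). That is the largest adjusted p inside the threshold, shared with Foxd1, and the next in the authors' deposited table is 0.0512. From the recovered reads the log2 ratio of side means, with 1 normalised read added, was 5.60. Without positive library 2 it was 4.93, and without library 3 of that side 6.17.

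Rdh10, the retinol dehydrogenase of the first oxidation step, was measured more evenly. It lies on chromosome 1, from 16105774 to 16133734 on the plus strand. It had 165, 188 and 92 reads in the positive libraries, against 133, 120 and 93 in the negative ones. The positive side thus held its highest libraries as well as its lowest, while the negative side spanned only 109 to 120 normalised reads. Its log2 fold change was 0.34 (standard error 0.26, interval -0.16 to 0.84; DESeq2 adjusted p = 1.00 in the authors' deposited table).

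Aldh1a3, the other enzyme of the second step, was the scarcest of the 9 genes. It lies on chromosome 7, from 66390890 to 66427517 on the minus strand. It had 9, 2 and 0 reads in the positive libraries, against 16, 1 and 16 in the negative ones. Negative libraries 1 and 3 were the highest and library 2 of that side was among the lowest, so the sides overlap. The log2 fold change of Aldh1a3 stood at -1.73 (standard error 1.28; DESeq2 adjusted p = 1.00 in the authors' deposited table). With 44 reads in all, its interval ran from -4.25 to 0.79.

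Aldh1a2 and Aldh1a3 thus had their reads in different libraries. The ratio of Aldh1a2 to Aldh1a3 reads, not corrected for length, was 19.9 and 116 in positive libraries 1 and 2. It was 0.0625, 2 and 0.125 in negative libraries 1 to 3. Positive library 3 has no ratio, since Aldh1a3 had 0 reads there. Aldh1a1, which encodes the third retinaldehyde dehydrogenase, had 1, 3 and 0 reads in the positive libraries, against 1, 0 and 1 in the negative ones.

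Cyp26b1, which hydroxylates and so clears retinoic acid, followed the libraries of Aldh1a2. It lies on chromosome 6, from 84571414 to 84593908 on the minus strand. It had 107, 372 and 6 reads in the positive libraries, against 16, 11 and 9 in the negative ones. Positive library 2 alone held 72.4% of its normalised reads, and library 3 of that side was the lowest of all 6. The log2 fold change of Cyp26b1 was 3.72 (standard error 1.28; DESeq2 p = 0.00363, adjusted p = 0.367 in the authors' deposited table). It was not called. The log2 ratio of side means from the reads was 3.61, and 2.04 without positive library 2. The ratio of Aldh1a2 to Cyp26b1 reads, not corrected for length, was 1.67, 0.626 and 0.333 in the positive libraries, against 0.0625, 0.182 and 0.222 in the negative ones. Of the other Cyp26 genes, Cyp26c1 had 1 read in all and Cyp26a1 was listed at 0.

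The binding proteins lay on opposite sides. Crabp2, which carries retinoic acid to its receptors, lies on chromosome 3, from 87948666 to 87953376 on the plus strand. It had 35, 50 and 12 reads in the positive libraries, against 20, 15 and 10 in the negative ones. Positive libraries 1 and 2 were above all others and library 3 of that side fell within the negative side's range. The log2 fold change of Crabp2 was 1.09 (standard error 0.59; DESeq2 p = 0.0637, adjusted p = 1.00 in the authors' deposited table).

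Crabp1, which sequesters retinoic acid in the cytosol, lies on chromosome 9, from 54764748 to 54773110 on the plus strand. It had 64, 28 and 39 reads in the positive libraries, against 100, 37 and 70 in the negative ones. Negative libraries 1 and 3 were the highest and library 2 of that side was below 2 of the positive libraries. For Crabp1 the log2 fold change was -0.69 (standard error 0.44; DESeq2 adjusted p = 1.00 in the authors' deposited table). The ratio of Crabp1 to Crabp2 reads, not corrected for length, was 1.83, 0.560 and 3.25 in the positive libraries, against 5, 2.47 and 7 in the negative ones.

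Among the receptors, Rara and Rarg were steady and Rarb was not. Rara lies on chromosome 11, from 98927818 to 98974942 on the plus strand. It had 345, 380 and 280 reads in the positive libraries, against 518, 311 and 327 in the negative ones, with the highest and the lowest normalised library both on the negative side. The deposited log2 fold change of Rara was -0.21 with a standard error of 0.19, and its interval ran from -0.58 to 0.16 (DESeq2 adjusted p = 1.00, deposited by the authors).

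Rarg lies on chromosome 15, from 102234938 to 102257517 on the minus strand. It had 359, 332 and 277 reads in the positive libraries, against 348, 257 and 224 in the negative ones. In normalised reads it was the most even gene of the set, with the highest library 1.32 times the lowest. The log2 fold change of Rarg stood at 0.21 (standard error 0.15, interval -0.08 to 0.51; DESeq2 adjusted p = 1.00 in the authors' deposited table).

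Rarb, the receptor of the striatum, had 86, 77 and 25 reads in the positive libraries, against 200, 31 and 166 in the negative ones. Negative libraries 1 and 3 held 64.1% of its normalised reads, and library 2 of that side lay near the lowest library of the positive side. For Rarb the log2 fold change was -1.16 (standard error 0.85, interval -2.82 to 0.50; DESeq2 adjusted p = 1.00 in the authors' deposited table). Rarb made up 10.9%, 9.76% and 4.30% of the receptors' summed normalised reads in the positive libraries, against 18.8%, 5.18% and 23.2% in the negative ones. Rarb lies at 16430839 to 16819156 of chromosome 14, minus strand. Of its 5265 annotated exonic bases 1793 overlap exons of Top2b on the other strand, which has a base mean of 13550, and whether counting used strand is not stated. Without strand, reads of that stretch cannot be told apart between the genes, so the level of Rarb is uncertain. Another 227 bases overlap the antisense gene Gm48162. No other gene of the set shares annotated exonic bases with another gene in GENCODE M21.

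**Figure D2:**
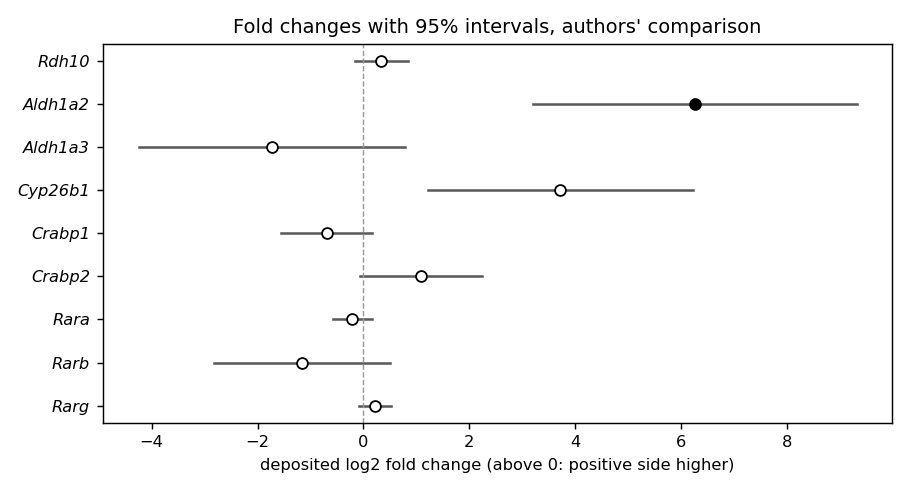
Deposited log2 fold changes of the 9 genes with 95% intervals from the standard errors, where values above 0 mean higher on the positive side and the filled point is the gene with an adjusted p under 0.05. The intervals of Aldh1a2 and Cyp26b1 lie above 0, and the other 7 include 0.

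The median absolute log2 fold change of the 9 genes was 1.09, with 5 positive and 4 negative, against 0.11 over all 18446 genes tested and 0.078 over the 13932 with a base mean of at least 10, which 8 of the 9 genes reach. The signed median was 0.21, against -0.0044 over all genes tested. Nothing is read from these medians, since the genes were proposed with the folds known.

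Levels can be compared between genes per kilobase of annotated exons, as base mean per kilobase. Rara had 81.8, Crabp1 69.9 and Rarg 69.6. Rdh10 had 31.2 and Aldh1a2 29.2, followed by Rarb at 18.5, Crabp2 at 17.4, Cyp26b1 at 15.7 and Aldh1a3 at 1.60. The ranges over libraries of neighbours in this order overlapped, except those of Rarg and Rdh10. Rara spanned 68.4 to 107 normalised reads per kilobase, Crabp1 34.2 to 112, Rarg 57.9 to 76.2 and Rdh10 24.5 to 44.2. The order was not fixed across libraries, since Aldh1a2 spanned 0.397 to 101 and Cyp26b1 1.24 to 68.0 normalised reads per kilobase.

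Markers of the meninges had their reads in the same libraries as Aldh1a2. All 16 genes of that list were higher on the positive side in the authors' deposited table, with a median log2 fold change of 3.25, and 4 were called (Cldn11, Col1a1, Foxd1 and Slc13a4). Over the 13 whose reads were recovered, summed normalised reads were 1702, 2266 and 294 in positive libraries 1 to 3, against 270, 208 and 254 in the negative ones. Library 3 was the lowest of the positive side for all 13. Slc6a13, a transporter gene of the meninges named after its values were seen, had 117, 239 and 0 reads in the positive libraries, against 1, 0 and 1 in the negative ones. Genes of macrophages and microglia had sums over 7 recovered genes of 2462, 2614 and 820 in the positive libraries, against 725, 1146 and 1107 in the negative ones. The members of that list differed: F13a1, a macrophage gene, was called at a log2 fold change of 4.59, while the microglial genes Cx3cr1 and P2ry12 stood at 0.35 and -0.10 in the authors' deposited table. The part of these cells in the levels of Aldh1a2, Cyp26b1, Crabp2 and Rdh10 was not tested. In bulk RNA, fewer cells of a type and less RNA per cell cannot be told apart.

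Markers of ventral progenitors, interneurons and striatum had their reads in the libraries of Rarb and Aldh1a3. All 19 genes of that list were lower on the positive side, with a median log2 fold change of -1.59, and Dlx5 and Dlx6 were called. Over 10 genes whose reads were recovered, summed normalised reads were 1361, 1065 and 966 in positive libraries 1 to 3, against 3608, 1433 and 3403 in the negative ones. For 9 of the 10, negative library 2 had the least on its side. The part of ventral tissue in the levels of Rarb, Aldh1a3 and Crabp1 was not tested. Choroid plexus genes had few reads, with normalised sums over all 7 markers of 74.1, 70.5 and 11.1 in the positive libraries, against 22.5, 18.2 and 30.6 in the negative ones. Most of the positive sum was Aqp1, a water channel gene, with 60, 51 and 7 reads in the positive libraries, against 8, 15 and 2 in the negative ones. Of the 7, 4 had a positive and 3 a negative fold change, and Ttr, the transthyretin gene of this epithelium, had 0, 3 and 1 reads in the positive libraries, against 1, 0 and 14 in the negative ones. Genes of the hem and Cajal-Retzius cells summed to 643, 585 and 344 normalised reads in the positive libraries, against 303, 389 and 371 in the negative ones, over 7 recovered markers, and their Wnt8b had all of its 59 reads in positive library 1. The single recovered endothelial marker of 6, Tek, had 338, 283 and 177 reads in the positive libraries, against 222, 224 and 181 in the negative ones.

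**Figure D3:**
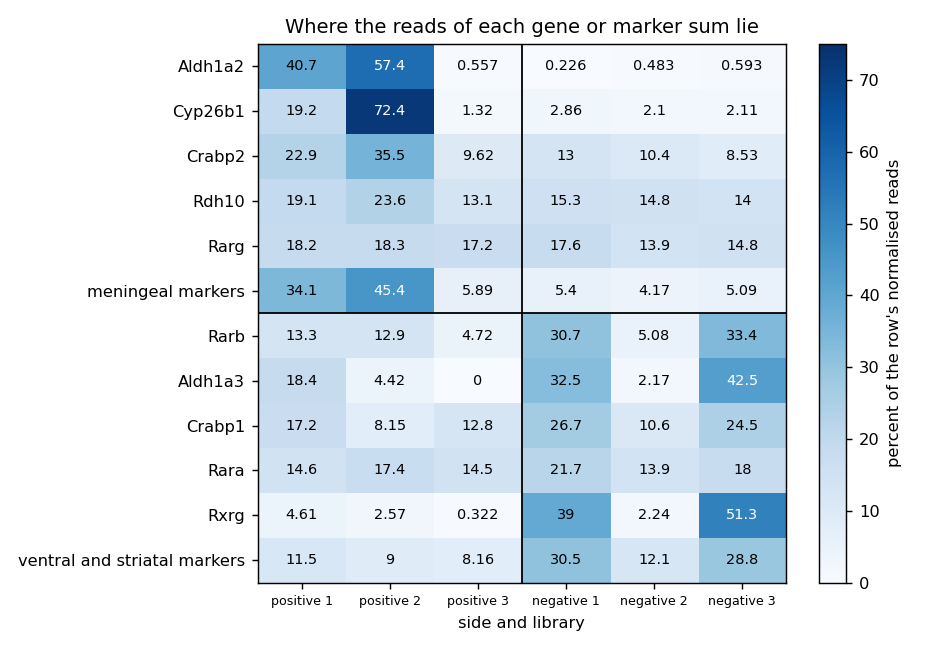
Percent of each row's normalised reads that lies in each library, with positive libraries left of negative ones, for the 9 genes, for Rxrg and for the summed recovered markers of the meninges and of ventral and striatal cells. Aldh1a2 has 40.7% and 57.4% in positive libraries 1 and 2, and Rxrg has 39.0% and 51.3% in negative libraries 1 and 3.

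Beyond the 9 genes, 83 other genes of the pathway were looked up, of which 66 were tested and 17 were listed at 0. Of the 66, 3 were called and all were lower on the positive side, where the share of all tested genes called in that direction was 0.0488%. They included the homeobox genes Meis1 and Pbx3, known to respond to retinoic acid. At an unadjusted p under 0.05 there were 1 higher and 12 lower genes among the 66. Of all 18446 genes tested, 3.96% pass, 511 of them higher and 219 lower. The median log2 fold change of the 66 was -0.05.

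Of the receptors' partners, Rxra, at a log2 fold change of 0.14 ± 0.11 (standard error), and Rxrb, at 0.03 ± 0.07 in the authors' deposited table, were close to 0. Rxrg, the partner receptor known from the striatum, had 35, 18 and 2 reads in the positive libraries, against 298, 16 and 299 in the negative ones. Its libraries were those of Rarb, with 2 high ones and negative library 2 as low as the positive side. The deposited log2 fold change of Rxrg was -3.62 ± 1.34 with a DESeq2 adjusted p of 0.518, as deposited by the authors, and it was not called. Of the cofactors, Nrip1, a ligand-dependent corepressor, had the smallest p, at -0.51 ± 0.20 (DESeq2 adjusted p = 0.651, deposited by the authors). Ncoa3, a coactivator, stood at -0.16 ± 0.11, and Ppard, a nuclear receptor of lipids, at 0.18 ± 0.13. None of the 16 genes of this group was called.

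Among dehydrogenases and reductases 15 of 23 were tested, 7 positive and 8 negative, and none was called. Dhrs3, which reduces retinaldehyde back to retinol and is induced by retinoic acid, had 175, 210 and 112 reads in the positive libraries, against 78, 118 and 102 in the negative ones. Its sides did not overlap once normalised, and its log2 fold change was 0.69 ± 0.29 (DESeq2 adjusted p = 0.815 in the authors' deposited table). The share of genes with sides apart, 12.5%, covers base means up to 80 only, below the 132 of Dhrs3. Rdh13, at -0.12 ± 0.10, Dhrs4, at 0.17 ± 0.18, and Dhrs7, at 0.24 ± 0.41, had intervals that include 0.

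Of the uptake genes, Stra6, the membrane receptor for the retinol carrier, had 146, 162 and 56 reads in the positive libraries, against 130, 43 and 81 in the negative ones, with overlapping sides. Lrp2, an endocytic receptor that takes up the carrier, had 19, 5 and 2 reads in the positive libraries, against 21, 16 and 19 in the negative ones. Scarb1, which takes up carotenoids, stood at 0.19 ± 0.11 in the authors' deposited table. Their deposited adjusted p by DESeq2 was 1.00 each.

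Of the known target genes, 21 were tested, 6 with a positive and 15 with a negative fold change, and their median log2 fold change was -0.24. Over all 18446 genes tested, 9000 were positive and 9446 negative, with a median of -0.0044, and nothing is read from the list's count. Among the targets with a base mean of at least 10, Tgm2, a transglutaminase gene, was highest at 0.93 ± 0.48. Nr2f2, a nuclear receptor gene, followed at 0.81 ± 0.72, and neither was called in the authors' deposited table. The targets Zfp503, Drd2 and Foxp1 are also on the list of ventral and striatal markers. Meis1 had 205, 153 and 127 reads in the positive libraries, against 471, 242 and 284 in the negative ones. These sides did not overlap. The share of genes with sides apart, 12.5%, covers base means up to 80 only, below the 244 of Meis1. The log2 fold change of Meis1 was -1.06 ± 0.24 (DESeq2 adjusted p = 0.0238 in the authors' deposited table). Pbx3 had -0.91 ± 0.20 with the same adjusted p in the authors' deposited table. Drd2, a dopamine receptor gene, had 60, 31 and 28 reads in the positive libraries, against 183, 39 and 150 in the negative ones (DESeq2 adjusted p = 0.197, deposited by the authors). Zfp503, a striatal transcription factor gene, had 158, 122 and 54 reads in the positive libraries, against 861, 147 and 700 in the negative ones (DESeq2 adjusted p = 0.255, deposited by the authors). The homeobox targets of the hindbrain Hoxa2, Hoxb1 and Hoxb2 were listed at 0.

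**Figure D4:**
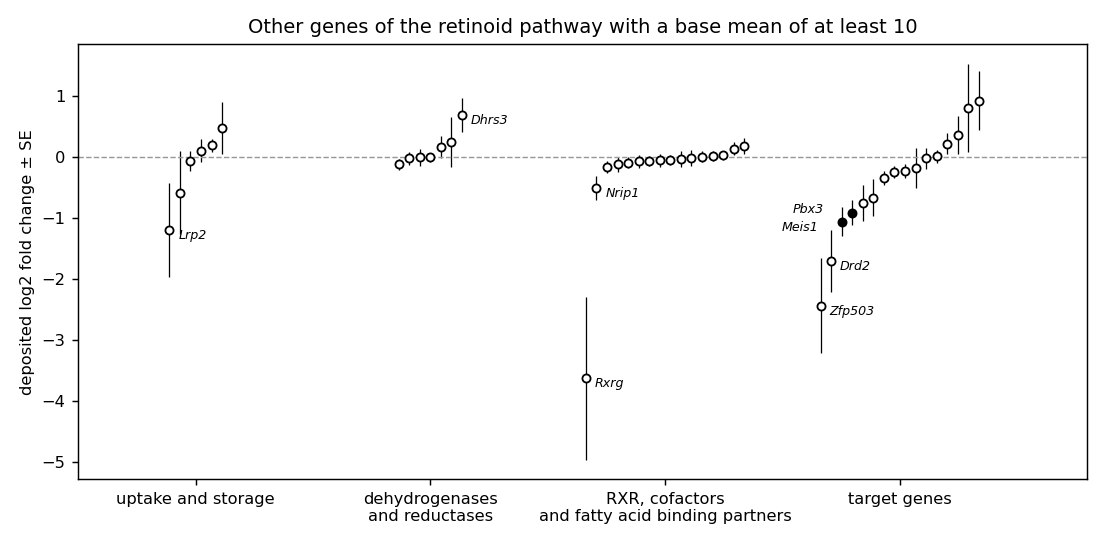
Deposited log2 fold changes with standard errors for the other pathway genes with a base mean of at least 10, by role, with filled points for genes with an adjusted p under 0.05. Rxrg at -3.62 is the lowest, the called genes Meis1 and Pbx3 lie near -1, and 1 called gene is not drawn.

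The genes most like each member were sought by Pearson's r of log2(normalised reads + 1) over the 6 libraries, as a description with no test. The search covered 2563 genes with at least 60 recovered reads. Above a base mean of 80 it held only members, pathway genes and markers, so other genes of higher mean were not compared. For Aldh1a2 the most alike were Ranbp3l (r = 0.998), Dcn (0.997), Cldn11 (0.996), Slc13a4 (0.995) and Gjb2 (0.995). Dcn and Cldn11, with base means of 144 and 106, entered the search only because they are on the meningeal list. Nothing is therefore read from their being on that list. Slc13a4, with a base mean of 28.3, is also on that list and would have been compared without it. Dcn encodes a matrix proteoglycan of fibroblasts, with 368, 485 and 14 reads in the positive libraries, against 12, 18 and 11 in the negative ones. Gjb2, a connexin gene, had 81, 146 and 0 reads in the positive libraries, against 0 in each negative one. For Cyp26b1 they were Creb3l1 (0.996), Stbd1 (0.993), Rdh10 (0.993), Trabd2b (0.993) and Tbx18 (0.992), the last a transcription factor gene of mural cells and meninges. For Rdh10 the first was Cyp26b1. Rdh10 and Cyp26b1, with base means of 130 and 83.8, entered the search only as members, so nothing is read from their likeness. For Crabp2 the first was Aldh3b1 (0.997), followed by Stbd1 (0.995) and by Lepr, the leptin receptor gene, at 0.989. For Rarb the first 4 were Dgkk (0.988), Dkk2 (0.986), Gpr149 (0.984) and Adarb2 (0.982), and the fifth is a gene model known by a number or clone name. The libraries are shared by all genes, so these values describe 6 libraries and do not show shared control.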

How the data were processed

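Polyadenylated RNA of 6 libraries was compared by the authors. Per the submitters' processing notes, cutadapt, featureCounts, DESeq2 and the build mm10 were used, without versions, while aligner, annotation, depth and strand setting were not given in the sources used here. The deposited table has no columns of values per sample. Per the file headers it holds the base mean, a signal that averages counts divided by size factors, a log2 fold change with its standard error, a Wald statistic, which is a score, and p-values. The deposited adjusted p-values equal a Benjamini-Hochberg adjustment over all 18446 tested genes to within 4.3e-14. A gene was called at an adjusted p under 0.05. No model was refitted and no test was added.

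Reads were recovered from the deposited base means. The lowest means take 6 values, each 1 read in 1 library (739 genes), and the sign of their fold change gives the side. Size factors followed from these and were refined on genes of low mean. Sets of 6 whole numbers that give the printed mean to within 1.5 half-units of its last digit were then searched. Of 7018 genes with a mean up to 80, all 7018 had exactly 1 solution. The fold change was not used there, and the fold change computed from those reads at the deposited standard error matched the deposited one to within 0.001 for 2523 of 2526 genes with at least 60 reads. Listed genes with a mean up to 400 often had several solutions, and the one whose fold change matched within 2e-05 was taken (34 of 36 resolved). Rarb, Cyp26b1, Rdh10, Rarg and Rara come from that step, so their fold change is no check on their reads. These limits and tolerances were set after the data had been seen. For Rara 260 sets gave the mean, and the next best missed the fold change by 0.00025. On simulated data 200 of 200 low genes and 7 of 8 high genes were recovered, with 0 wrong. The fold changes and standard errors of the simulated high genes came from the model that the search uses. They therefore do not test how well deposited values follow that model. Of 100 real means moved at random, 3 had any solution. These were all means up to 80, so that count does not cover Rdh10, Rara, Rarb, Rarg or Cyp26b1.

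Members, lists and tests were chosen with earlier results of these data known. Named were all members, called pathway genes, up to 4 per role by smallest p with a mean of at least 10, and some or all of the 5 most alike genes. Markers were named by smallest p, up to 4 per list, with Neurod6, Slc6a13, Tek, Cx3cr1 and P2ry12 named after their values were seen. Aldh1a1, Aldh1a7, Lrat, Tgm2, Nr2f2, Rxra, Rxrb and genes at or near 0 were likewise added. Exonic lengths come from GENCODE M21 and promoters from RefSeq. Python 3.11.15, numpy 2.4.6, pandas 2.3.3, scipy 1.17.1 and numba 0.67.0 were used. Some listed genes enter the counts and are not reported here.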

Additional observations from a re-analysis of the deposited data

How the results depend on the processing

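The count of called members was 1 and that of other called pathway genes 3, and both counts stayed at these values with an adjusted p threshold of 0.10 and with the deposited p adjusted over genes with a base mean of at least 10 or of at least 50. The log2 ratio of side means from the recovered reads kept its direction for all 9 genes under every change. The changes were a pseudocount of 0.5 or 5, no size factors, and each library left out in turn. The ratio moved by less than the spread between libraries within sides. That spread was 2.44 for Aldh1a2 and 2.01 for Cyp26b1 (standard deviation on the log2 scale), and the low positive library 3 is part of it. With positive library 1 or 2 left out the other high one remains, so nothing is read from the kept direction of these genes. Leaving out a library gave 4.93 to 6.17 for Aldh1a2, 2.04 to 4.17 for Cyp26b1, 0.58 to 1.39 for Crabp2, -1.62 to -0.79 for Rarb and -2.65 (without positive library 1) to -0.99 for Aldh1a3, whose value over all libraries was -1.51. With a tolerance 2 times as wide, the reads of 9 of the 9 genes were recovered uniquely. No paired analysis was possible because the deposited table holds no values per labelled library and the recovered libraries carry no replicate number. Depth limits Aldh1a3 most, with 44 reads in all.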

Other observations

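Reads per library of some pathway genes counted above were as follows. Tgm2, which encodes a transglutaminase induced by retinoic acid, had 168, 227 and 36 reads in the positive libraries, against 97, 66 and 57 in the negative ones, so that its highest and lowest libraries were both positive. Aldh1a7, a relative of Aldh1a1, had 2, 7 and 2 reads in the positive libraries, against 0, 0 and 1 in the negative ones. Lrat, which esterifies retinol for storage, had 4, 2 and 1 reads in the positive libraries, against 0, 0 and 1 in the negative ones.

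The genes most like the remaining members, by the same measure over 6 libraries, were G0s2 (r = 0.986) and Chil1 (0.982) for Crabp1, H4c8 (0.982) and Dipk2b (0.963) for Rara, and Ecm2 (0.979) and Cfap61 (0.949) for Rarg. The genes compared were the same as above, and Aldh1a3 was not searched, since it has fewer than 60 reads.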
